A study of Mus musculus with 6 samples.

Results

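Prostaglandins are short-range lipid signals made from arachidonic acid, which phospholipase A2 frees from membranes. The cyclooxygenases turn it into the unstable intermediate PGH2, terminal synthases convert PGH2 into PGE2, prostacyclin and related products, G protein-coupled receptors read these signals, and a dehydrogenase and reductases inactivate them. In fibroblasts the inducible cyclooxygenase is an early response gene of growth factors, serum, cytokines and wounding, and PGE2 is a main product. Described here are 10 genes of this pathway, taken by symbol from a table of 21878 genes: the phospholipase gene Pla2g4a, the cyclooxygenase genes Ptgs1 and Ptgs2, the synthase genes Ptges, Ptges2, Ptges3 and Ptgis, the PGE2 receptor gene Ptger4, and the inactivating enzyme genes Hpgd and Ptgr1. All 10 were in the table.

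RNA-seq was made from NIH3T3, an immortal line derived from mouse embryo fibroblasts, labelled as carrying a radiation injury in all 6 libraries. One group was treated with exosomes, which the series title calls plasma-derived, and the other with phosphate-buffered saline (PBS), with 3 libraries each and a time point of 72 h. The labels give neither a radiation dose, nor the species of the plasma, nor an exosome dose, an unirradiated group was not analysed here, and the labels do not state whether replicate libraries stem from independent cultures. P-values thus reflect library-to-library spread, part of which may be technical.

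Levels are FPKM, fragments scaled to transcript length and library size, which is meant to let levels of different genes be set side by side. The transcript lengths behind this scaling were not checked, and ratios and shares between genes depend on them. Changes are exosomes over PBS on log2(FPKM + 1) with their standard error (SE) from limma, called raised or lowered at a Benjamini-Hochberg adjusted p under 0.05 over all tested genes. Between 18800000 and 22000000 reads per library were counted, by an estimate from the deposited group means. Where 3 values are given per group, they are in the order of replicates 1 to 3. All 10 fibroblast markers checked (collagens, Pdgfra, Vim and others) were above 1 FPKM, with sums of 6320 to 6694 with PBS and 7446 to 7720 with exosomes. Leukocyte markers, which matter here because macrophages also express Ptgs2, summed to 7.41 to 11.996 FPKM with PBS and 4.46 to 5.32 with exosomes. Of these 10 markers Tyrobp and Cd3e were at 0 in every library, Ptprc, the pan-leukocyte marker CD45, was at most 0.0876 FPKM, and 7 stayed below 1 FPKM throughout. Platelet markers summed to 2.73 to 4.61 and 3.54 to 4.40 FPKM, with Gp9 and Gp1ba at 0 in every library. The 1 platelet marker tested, Itga2b, was raised from 1.90 ± 0.409 (SD, n = 3) to 2.80 ± 0.116 FPKM (limma adjusted p = 0.00862). Whether platelet RNA had a part in any change was not tested. In bulk RNA, fewer cells expressing a gene and less of its RNA per cell cannot be told apart.

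Ptgs2 showed by far the largest fall among these genes, and transcripts for the other steps of PGE2 signalling moved by smaller amounts. Of the 9 members tested, 5 were lowered (Ptgs2, Ptges, Ptger4, Ptges3 and Pla2g4a), 2 were raised (Ptgis and Ptges2) and 2 did not pass (Ptgs1 and Ptgr1). Hpgd was listed at 0. Among all 10274 genes tested, 18.4% were lowered and 25.4% raised. Every member tested was above 5 FPKM in all 6 libraries, so none entered the test through 1 group only. The median log2 change of the 9 was −0.20, against 0.04 over all genes tested. In 5 members the 3 exosome values lay below all 3 PBS values, as in 23.5% of tested genes, and in 2 they lay above, as in 32.0%. In the authors' deposited table, made from counts, 6 members were lowered and 1 raised at an adjusted p under 0.05, against 13.5% and 12.4% of the 15844 genes with an adjusted p there. That table adds Ptgr1 to the lowered genes and does not call Ptges2.

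**Figure D1:**
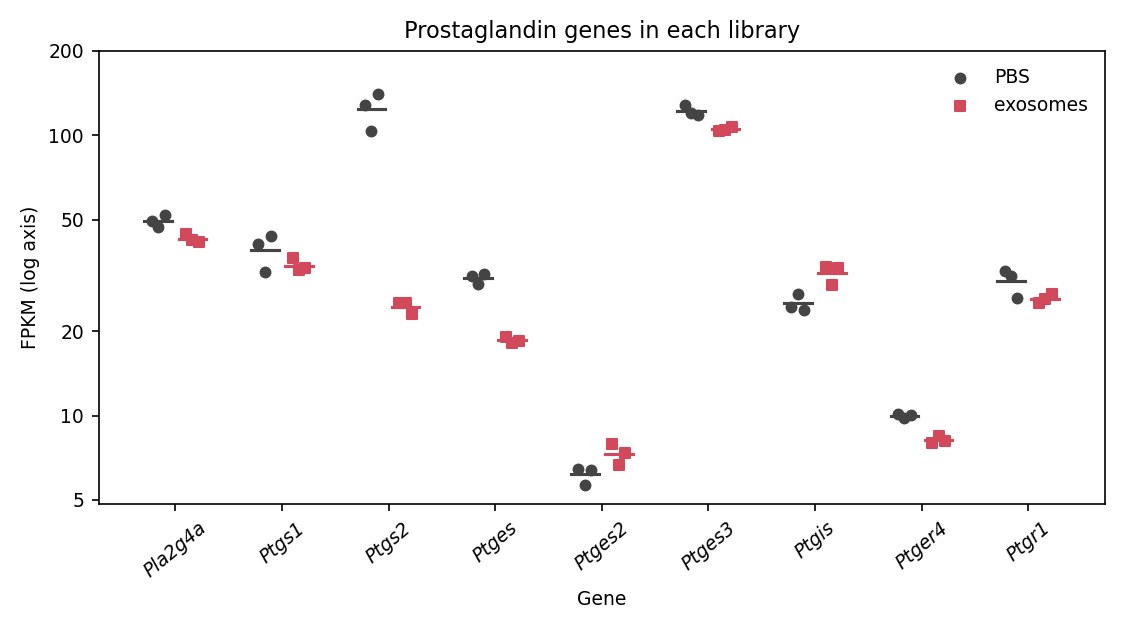
FPKM of the 9 members above 0 on a log axis, 1 point per library (circles PBS, squares exosomes) with a line at the mean of each group. The separation is widest for Ptgs2, at 103 to 140 with PBS and 23.1 to 25.2 with exosomes, and the groups overlap in Ptgs1 and Ptgr1.

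Pla2g4a encodes cytosolic phospholipase A2 alpha, which binds membranes when calcium rises and frees arachidonic acid for the cyclooxygenases. Its level was 49.5, 47.0 and 51.8 FPKM in the PBS libraries and 44.4, 42.4 and 41.6 FPKM in the exosome libraries. The groups did not overlap, although the gap between the lowest PBS and the highest exosome library was small. The log2 change was −0.20 ± 0.05 SE (limma adjusted p = 0.00886).

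Ptgs1 and Ptgs2 encode the cyclooxygenases COX-1 and COX-2. COX-1 is made constitutively in many cells and COX-2 is the form induced by growth and inflammatory signals. Ptgs2 was at 128, 103 and 140 FPKM in the PBS libraries and at 25.1, 25.2 and 23.1 in the exosome libraries. Every exosome library was thus far below every PBS library, and the PBS libraries also differed among themselves more than the exosome libraries did. The group means were 124 ± 18.7 (SD, n = 3) and 24.5 ± 1.20 FPKM, which is 5.06-fold lower with exosomes. The log2 change was −2.28 ± 0.10 SE with a 95% confidence interval of −2.51 to −2.05 (limma adjusted p = 1.82e-06). It ranked 6th from the lowest among the 10274 changes. The authors' deposited table gives mean normalized counts of 14417 with PBS and 2804 with exosomes for Ptgs2 and a fold of 0.195 (adjusted p = 1.64e-20).

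Ptgs1 behaved differently, with 40.8, 32.5 and 43.7 FPKM in the PBS libraries and 36.4, 32.9 and 33.5 FPKM in the exosome libraries. PBS replicate 2 lay below all exosome libraries while the other PBS libraries lay above them, so the groups overlapped. The log2 change of Ptgs1 was −0.17 ± 0.10 SE, with an interval of −0.40 to 0.05, and did not pass (limma adjusted p = 0.185). Without PBS replicate 2 it was −0.30 and passed (adjusted p = 0.0042).

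Both cyclooxygenase transcripts were lowest in PBS replicate 2 and highest in PBS replicate 3, so that their ratio hardly varied within the group. The ratio of Ptgs2 to Ptgs1 was 3.14, 3.17 and 3.20 in the PBS libraries, and 0.691, 0.764 and 0.690 in the exosome libraries. By FPKM, the more abundant cyclooxygenase transcript was therefore Ptgs2 in every PBS library and Ptgs1 in every exosome library. In the authors' mean normalized counts, not scaled to length, Ptgs2 was at 14417 and Ptgs1 at 6366 with PBS. With exosomes these counts were 2804 and 5314, so the order was the same but the ratios were smaller. The longest GENCODE coding transcripts are 4453 bases for Ptgs2 and 2867 for Ptgs1. Scaling the counts to these lengths would make the ratios smaller still, so the size of the FPKM ratios and shares is uncertain. As a share of the summed FPKM of both, Ptgs2 made up 76.0% ± 0.179 (SD, n = 3) with PBS and 41.7% ± 1.43 with exosomes, while that sum went from 163 ± 24.5 to 58.7 ± 2.54 FPKM. The log2 ratio differed by −2.15 between the groups (two-sided exact permutation test over libraries, p = 0.1, the smallest value that 3 against 3 allows). The order of the PBS libraries in these genes was also that of the aldose reductase gene Akr1b3, whose enzyme can also make PGF2 alpha, at 130, 84.1 and 220 FPKM in the PBS libraries, and of the macrophage growth factor receptor gene Csf1r, at 1.77, 0.759 and 3.22. With exosomes, Akr1b3 was at 61.8 to 89.2 FPKM and Csf1r at 0.249 to 0.381. Among the other leukocyte markers, Cd14 had the same order, at 4.15, 3.68 and 7.10 FPKM in the PBS libraries. But Cd68, at 1.54, 2.64 and 1.53, and Ptprc were highest in PBS replicate 2. Of the 2 leukocyte markers tested, Cd14 was lowered, to 3.43, 2.39 and 1.99 FPKM in the exosome libraries (log2 change −0.71 ± 0.23 SE, limma adjusted p = 0.0388). Cd68 was not called, at 1.90 ± 0.641 FPKM with PBS and 1.81 ± 0.330 with exosomes (limma adjusted p = 0.878). The fall of Ptgs2 was about as large without either extreme library, with a log2 change of −2.19 without PBS replicate 3 and −2.41 without PBS replicate 2. Whether leukocyte transcripts had a part in it was not tested.

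**Figure D2:**
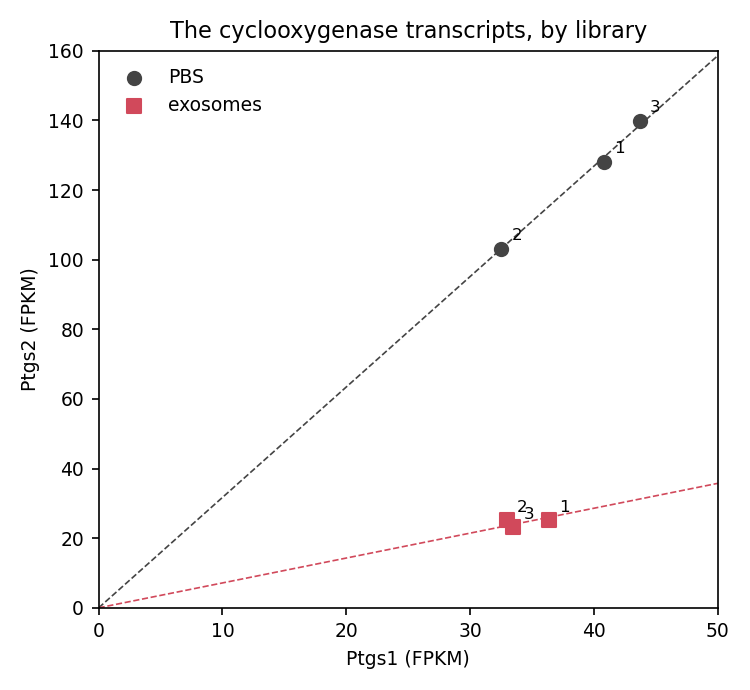
Ptgs2 FPKM against Ptgs1 FPKM, 1 point per library, numbered by replicate (circles PBS, squares exosomes), with dashed lines through 0 at the mean ratio of each group. The PBS libraries lie along a ratio of 3.17 and the exosome libraries along 0.715, while Ptgs1 covers 32.5 to 43.7 FPKM with PBS and 32.9 to 36.4 with exosomes.

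Sequences of the cyclooxygenase genes are given because the inducible and the constitutive gene separated so widely here. Windows from 250 bases before to 50 after the annotated start were taken from RefSeq (GRCm38.p6, a later build than the mm9 that the submitters' processing notes name) and 9 of the 10 members had one. Searched on both strands were the letters CGTCA (the core of a cAMP response element, CRE), CACGTG (an E-box), TTGCNNAA (a C/EBP core), TGANTCA (AP-1), GTGGGCG (part of the Egr element), GGGCGG (a GC box, which can overlap the Egr letters), TATAAA and the NF-kB consensus. The Ptgs2 window held 1 C/EBP match starting at base −69, 1 GC box at −170, and, past the annotated start, a CRE core at base 14 that overlaps an E-box at base 17. The C/EBP letters occur in 10.8% of all 32851 windows of this length, the CRE core in 20.8%, the E-box in 7.15% and the GC box in 35.7%. The Ptgs1 window held none of the 8. These letters were not particular to Ptgs2 among the members. Ptgr1 had a C/EBP match at −172, Ptges2 an E-box at −77 and Ptges3 a CRE core at 12. GC boxes were also found in Ptges, Ptgr1, Hpgd, Ptges3 and Ptger4. The first 2 stretches below are the 150 bases before each start, the Ptgs2 stretch with its C/EBP letters in capitals, and the third holds the CRE core and E-box of Ptgs2 in capitals. A match is a description of letters only, and binding was not measured.
Ptgs2 (chr1:150099881-150100030, plus strand): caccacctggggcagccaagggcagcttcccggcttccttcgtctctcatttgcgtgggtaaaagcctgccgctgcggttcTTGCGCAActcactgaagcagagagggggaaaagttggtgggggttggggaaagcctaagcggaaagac
Ptgs1 (chr2:36230276-36230425, plus strand): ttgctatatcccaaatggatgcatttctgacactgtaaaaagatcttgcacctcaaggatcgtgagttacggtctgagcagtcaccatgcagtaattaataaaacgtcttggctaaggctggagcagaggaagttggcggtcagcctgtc
Ptgs2 after the start (chr1:150100033-150100062, plus strand): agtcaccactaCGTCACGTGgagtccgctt

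The mRNA of Ptgs2 is also known for AU-rich letters behind its stop codon, to which proteins that shorten or lengthen mRNA life bind. In the longest GENCODE coding transcript of each gene, Ptgs2 had 6 copies of TATTTAT in 2445 bases after the stop codon, Ptger4 had 2 in 1233, Hpgd had 1 in 838 and the other 7 members, Ptgs1 among them, had 0. Over 20981 coding genes 27.4% had at least 1 copy and 4.08% at least 3. The median length after the stop codon in these genes was 937 bases, shorter than in Ptgs2, and the shares were not matched for length. The 30 bases of Ptgs2 richest in ATTTA, bases 12 to 41 after the stop codon, are given with those letters in capitals as DNA.
Ptgs2: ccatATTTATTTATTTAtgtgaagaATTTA

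Of 13 listed genes known to act on Ptgs2 transcription or mRNA, all tested, 8 were lowered, 2 raised and 3 did not pass, beside 18.4% lowered and 25.4% raised among all genes tested. The median log2 change of the 13 was −0.15. The list was chosen with earlier results of these data known and mixes genes that act on Ptgs2 in different ways. Its counts are therefore a description only. Zfp36 encodes tristetraprolin, which binds AU-rich letters and speeds mRNA decay. It was at 31.6, 34.7 and 27.3 FPKM in the PBS libraries and 12.7, 11.7 and 12.7 in the exosome libraries, a log2 change of −1.26 ± 0.08 SE (limma adjusted p = 5.09e-06). Its relatives split, as Zfp36l2 was lowered (log2 change −0.60) and Zfp36l1 was raised, from 92.6 ± 3.65 to 112 ± 2.60 FPKM (log2 change 0.27, limma adjusted p = 0.00125). The NF-kB inhibitor gene Nfkbia was lowered by 0.73 on the log2 scale, and Cebpb, a C/EBP factor, went from 116 ± 8.55 to 79.8 ± 4.67 FPKM (limma adjusted p = 0.000218). The other raised gene of this list was Usf1, from 13.6 ± 0.501 to 17.6 ± 0.907 FPKM (log2 change 0.35, limma adjusted p = 0.000853). The genes with the likest profile to Ptgs2 over the 6 libraries were Ereg, Slc25a37 and Ier3, with Pearson r of 0.999 on the log2 scale for each. As 781 tested genes had an r above 0.95 with Ptgs2, such likeness mainly restates the difference between groups. Each of these 3 genes also shared the order of the PBS libraries, which picking them by r over the same libraries favours. In the PBS libraries Ereg was at 31.8, 23.6 and 38.3 FPKM and Slc25a37 at 22.7, 21.6 and 23.8. Ier3, an early response gene, was at 121, 95.5 and 140 FPKM there.

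Several genes are named for PGE2 synthesis from PGH2. Ptges encodes microsomal PGE synthase 1, the inducible enzyme that is coupled to COX-2, Ptges2 a membrane-associated synthase, and Ptges3 the protein p23, which is also a co-chaperone of Hsp90. Ptges was at 31.5, 29.6 and 32.1 FPKM in the PBS libraries and at 19.0, 18.1 and 18.4 in the exosome libraries. The groups were far apart for the spread within each, and the log2 change was −0.71 ± 0.05 SE (limma adjusted p = 6.95e-06), or 1.68-fold lower in mean FPKM. In RefSeq a pseudogene and a long non-coding RNA overlap Ptges, and no source used here states strand use in counting, which leaves its level uncertain.

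The promoter window of Ptges is given because it was the member with the second lowest change. It held 2 matches to GTGGGCG, at bases −55 and −44, each running into a GC box at −53 and −42. GTGGGCG occurs in 7.97% of all windows, and the window of Hpgd, listed at 0 FPKM, also held 2 matches, at −49 and 39. The 150 bases before the start follow, with GTGGGCG in capitals.
Ptges (chr2:30903298-30903447, minus strand): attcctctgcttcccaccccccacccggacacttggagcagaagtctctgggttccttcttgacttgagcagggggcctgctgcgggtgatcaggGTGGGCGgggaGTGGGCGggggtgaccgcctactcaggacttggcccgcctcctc

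Ptges3 was the most abundant of these genes, at 128, 120 and 118 FPKM in the PBS libraries and 104, 104 and 107 in the exosome libraries. All exosome libraries were below all PBS libraries, by a small margin, with a log2 change of −0.21 ± 0.05 SE (limma adjusted p = 0.00487). A pseudogene of Ptges3 is annotated and can share its reads, so its level is uncertain too. Ptges2 was the least abundant, at 6.46, 5.67 and 6.41 FPKM in the PBS libraries and 7.92, 6.65 and 7.38 in the exosome libraries. It was called raised, with a log2 change of 0.21 ± 0.07 SE (limma adjusted p = 0.0384). This call ended without PBS replicate 1 (adjusted p = 0.0561), PBS replicate 2 (0.11), exosome replicate 1 (0.134) or exosome replicate 3 (0.0942), with no filter for low genes (0.0796) and with median of ratios scaling (0.0679). The authors' deposited table has Ptges2 at mean normalized counts of 252 and 266 (adjusted p = 0.829).

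Summed over the 3 genes, PGE synthase transcripts were at 159 ± 5.98 FPKM (SD, n = 3) with PBS and 131 ± 1.70 with exosomes. Ptges made up 19.0%, 19.0% and 20.5% of the sum in the PBS libraries and 14.6%, 14.01% and 13.9% in the exosome libraries. The means differed by −5.36 percentage points (two-sided exact permutation test, p = 0.1, the smallest value possible). Ptges3 took the largest share in both groups, 76.6% ± 1.07 and 80.2% ± 0.782.

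**Figure D3:**
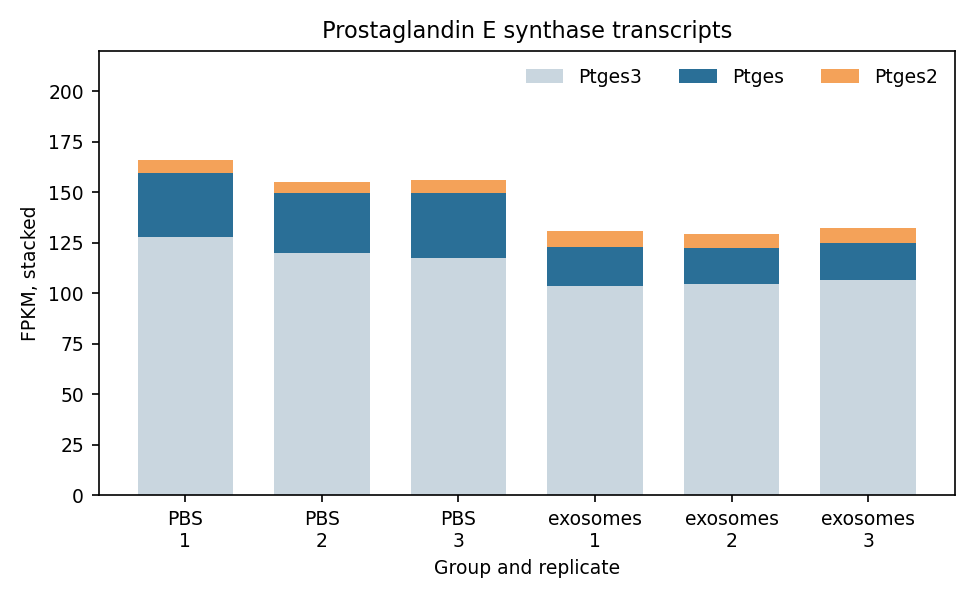
FPKM of Ptges3, Ptges and Ptges2 stacked in each of the 6 libraries, on an axis from 0. The sum is 155 to 166 with PBS and 129 to 132 with exosomes, and the band of Ptges narrows from 29.6 to 32.1 FPKM to 18.1 to 19.0.

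Ptgis encodes prostacyclin synthase, a cytochrome P450 that makes PGI2 from the same PGH2. Unlike Ptges it was higher with exosomes, at 24.4, 27.2 and 23.8 FPKM in the PBS libraries and 33.8, 29.3 and 33.5 in the exosome libraries. The highest PBS library, replicate 2, lay just under the lowest exosome library, also replicate 2. The log2 change of Ptgis was 0.35 ± 0.07 SE (limma adjusted p = 0.00346), and the authors' deposited table gives a fold of 1.23 (adjusted p = 0.00145). The ratio of Ptgis to Ptges was 0.774, 0.921 and 0.742 in the PBS libraries and 1.78, 1.62 and 1.82 in the exosome libraries. By FPKM, Ptges was thus the more abundant in every PBS library and Ptgis in every exosome library. In the authors' mean normalized counts, not scaled to length, Ptges stayed above Ptgis in both groups. With PBS these counts were 2656 and 983, and with exosomes 1520 and 1209. A long non-coding RNA overlaps Ptgis in RefSeq. Of the 7 other prostanoid synthase genes listed, Hpgds was at 0 throughout and Ptgds, Tbxas1 and Fam213b did not reach 0.12 FPKM in any library. The other 3 were expressed and tested, and did not pass. Akr1b3 was at 145 ± 69.0 FPKM with PBS and 72.2 ± 14.9 with exosomes (limma adjusted p = 0.119). Gstm2 was at 29.7 ± 3.48 and 32.2 ± 0.498 FPKM (0.2), and Cbr1 at 17.9 ± 0.754 and 19.7 ± 0.920 (0.0666).

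Ptger4 encodes EP4, a PGE2 receptor that raises cAMP. It was at 10.2, 9.76 and 10.1 FPKM in the PBS libraries and 8.004, 8.47 and 8.08 in the exosome libraries. Spread within the groups was low and they did not overlap, with a log2 change of −0.26 ± 0.05 SE (limma adjusted p = 0.00273). Of the other PGE2 receptor genes, Ptger2 and Ptger3 were at 0 in every library and Ptger1 was at 0.143 ± 0.0381 FPKM with PBS and 0.128 ± 0.0468 with exosomes. Ptger4 was therefore the one PGE2 receptor gene above 1 FPKM in these cells.

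The prostacyclin receptor gene Ptgir went the opposite way to the prostacyclin synthase gene. It was at 1.66, 1.67 and 1.34 FPKM in the PBS libraries and 0.521, 0.476 and 0.443 in the exosome libraries, with a log2 change of −0.78 ± 0.08 SE (limma adjusted p = 7.27e-05). Ptgir reached 1 FPKM only with PBS, so it could be tested only because it was high there. The authors' deposited table has Ptgir at mean normalized counts of 205 and 63.8, a fold of 0.311 (adjusted p = 2.33e-20). Ptgfr, the PGF2 alpha receptor gene, was the most abundant membrane receptor gene among the prostanoid receptors listed and was raised from 16.5 ± 0.920 to 20.2 ± 1.23 FPKM (log2 change 0.28, limma adjusted p = 0.00479). Ppard, a nuclear receptor proposed to bind prostacyclin, was lowered from 16.1 ± 0.519 to 11.8 ± 0.0515 FPKM (log2 change −0.42, adjusted p = 0.000133). Ptgdr was at 0 throughout, and Ptgdr2, Tbxa2r and Pparg stayed below 0.36 FPKM.

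Hpgd encodes the 15-hydroxyprostaglandin dehydrogenase that starts prostaglandin inactivation. It was listed at 0 FPKM in all 6 libraries, and the mean normalized count in the authors' deposited table is 0 in both groups. A count of 0 allows up to 3 counts, or 0.0511 per 1000000 of the estimated reads of the 3 PBS libraries and 0.0483 per 1000000 of those of the 3 exosome libraries, which covers counting error only. Ptgr1 encodes a reductase of 15-keto prostaglandins and of leukotriene B4, and is also an NRF2 target. It was at 32.7, 31.6 and 26.2 FPKM in the PBS libraries and 25.1, 25.97 and 27.1 in the exosome libraries. PBS replicate 3 lay among the exosome libraries. The log2 change was −0.20 ± 0.08 SE and did not pass (limma adjusted p = 0.0587), but it passed without PBS replicate 3 (−0.29, adjusted p = 0.0024) and with either rescaling, and the authors' deposited table gives an adjusted p of 0.0355.

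Ptgr2, a second reductase of 15-keto PGE2, was raised from 2.60 ± 0.325 to 4.23 ± 0.219 FPKM (log2 change 0.54 ± 0.08 SE, limma adjusted p = 0.000571), and every exosome library was above every PBS library. Among the 6 further genes of prostanoid transport and breakdown, Ptgr2 included, 3 of 5 tested were raised and 0 lowered, beside 25.4% and 18.4% among all genes tested. The others raised were Zadh2, a reductase related to Ptgr2 (log2 change 0.19), and Ptgfrn, a membrane protein that associates with the PGF2 alpha receptor (log2 change 0.19). The authors' deposited table calls Ptgr2 (adjusted p = 4.68e-08) but neither Zadh2 (0.0806) nor Ptgfrn (0.103). The prostaglandin importer gene Slco2a1 was at 12.5 ± 1.52 FPKM with PBS and 12.4 ± 1.13 with exosomes (limma adjusted p = 0.931).

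Beyond the members, 77 genes of eicosanoid metabolism and its control were listed, of which 43 were tested, 13 raised, 15 lowered and 15 not past the threshold, where all genes gave 25.4% raised and 18.4% lowered. Ptgir, Mgst2 and Acsl6 among them reached 1 FPKM in 1 group only. Their median log2 change of 0.05 was close to the 0.04 of all genes tested. Genes that load arachidonate onto coenzyme A or back into membranes split, with 4 of 7 lowered (Acsl1, Acsl4, Acsl5 and Mboat7) and 2 raised (Acsl3 and Lpcat3). Among phospholipases and related genes 2 of 7 tested were raised, Pla2g15 and Pla2g16, and 1 lowered, Pla2g7, which encodes the enzyme that breaks down platelet-activating factor and went from 11.95 ± 0.545 to 8.56 ± 0.505 FPKM (limma adjusted p = 0.000372). Pla2g16 was at 2.36 ± 0.115 and 3.30 ± 0.434 FPKM (adjusted p = 0.00692).

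The lipoxygenase branch makes leukotrienes from the same arachidonate, and 5 of its 15 listed genes were tested. Of these, 3 were raised and 0 lowered, beside 25.4% and 18.4% among all genes tested. The 2 most abundant did not pass. Lta4h was at 29.9 ± 1.02 FPKM with PBS and 32.3 ± 1.88 with exosomes (limma adjusted p = 0.139), and Mgst3 at 32.6 ± 5.15 and 38.0 ± 3.82 (limma adjusted p = 0.14). The raised genes were at low levels. Alox5ap, the partner protein of 5-lipoxygenase, was at 0.929, 1.85 and 0.970 FPKM in the PBS libraries and 2.79, 3.58 and 3.76 in the exosome libraries (log2 change 0.98 ± 0.15 SE, limma adjusted p = 0.00147). Ltc4s, leukotriene C4 synthase, was at 1.57 ± 0.247 and 2.78 ± 0.0603 FPKM (limma adjusted p = 0.000538), but the authors' deposited table, with mean normalized counts of 12.8 and 23.2 for Ltc4s, does not call it (adjusted p = 0.161). Mgst2, a related glutathione transferase, was at 0.664 ± 0.285 and 1.11 ± 0.132 FPKM (limma adjusted p = 0.0394), and could be tested only because it reached 1 FPKM with exosomes. The 5-lipoxygenase gene Alox5 itself was listed at 0 in every library, as were Alox12, Alox12b and Alox8.

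**Figure D4:**
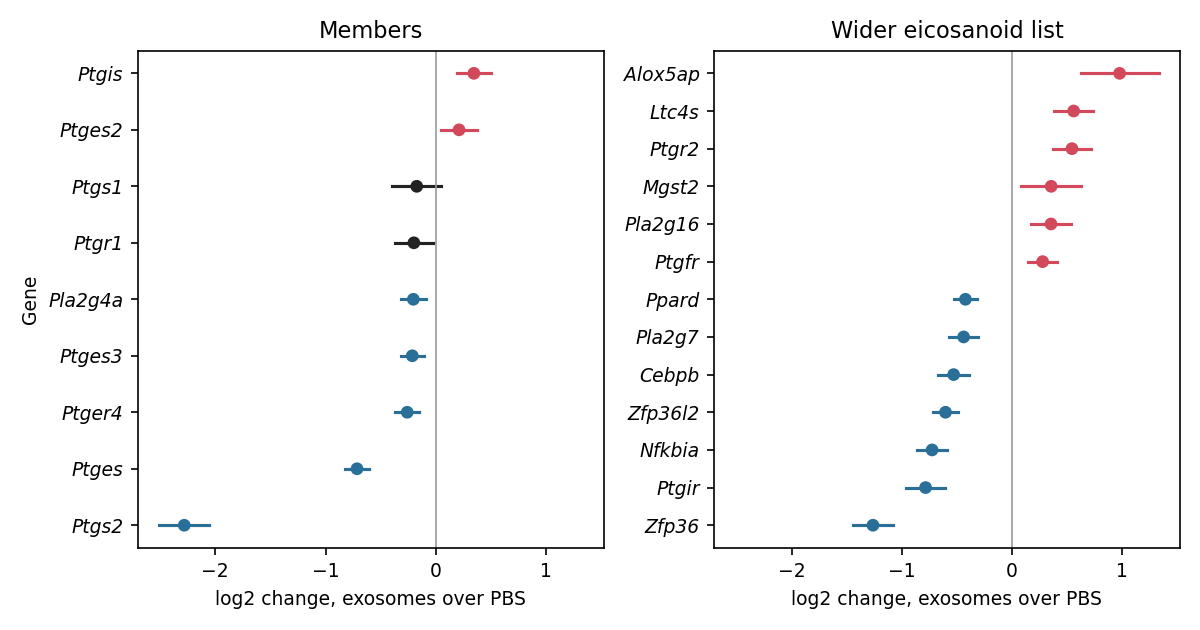
Log2 change of exosomes over PBS with its 95% confidence interval from limma, for the 9 tested members and for the named genes of the wider list (blue lowered, red raised, black not past the threshold). Ptgs2 lies at −2.28, Ptges at −0.71 and every other member between −0.26 and 0.35, and in the wider list the range is −1.26 for Zfp36 to 0.98 for Alox5ap.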

How the data were processed

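The deposited table gives, per library, an expression value read here as FPKM. The header says only expression, and the unit was inferred from Cufflinks in the submitters' processing notes and the unequal column sums. Per the file headers the authors also deposited DESeq results: a normalized count signal as a group mean, a linear fold (ratio), a p-value and an adjusted p-value. Per the submitters' processing notes the authors used HISAT2, Bowtie2, Trimmomatic, SAMtools, StringTie, Cufflinks, DESeq, HTSeq and the mm9 build, with no versions or roles given. Library columns were matched by sample number in the labels, and 27 names turned into dates were repaired by Entrez identifier.

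Without counts of single libraries, the count test foreseen for count tables was replaced by the test on log values. Depth was estimated from the steps of the authors' group means in genes seen in 1 library. The 10274 genes that reached 1 FPKM in 3 libraries were tested on log2(FPKM + 1), pseudocount 1, with limma 3.58.1 in R 4.3.3 (trend, robust, group as the only term, two-sided, Benjamini-Hochberg). On simulated data (5 draws with 200 changed genes each) it recovered 38% of genes changed by 0.25, 86% at 0.5 and 98% at 1 on the log2 scale, and called 0.0457% of unchanged genes. The changed genes were drawn from those of higher level, with normally distributed noise. In the data far more genes were called, 2612 raised and 1889 lowered, so these shares need not hold there. Ratios were compared by exact permutation (SciPy 1.17.1). Alternatives were other pseudocounts, filters, scalings, variance models, a replicate block, each library left out, and the authors' comparison. Members and lists were chosen with earlier results of these data known. Named were all members, prostanoid receptors, the 12 largest calls of the wider list and the 3 genes likest to Ptgs2. Genes named beyond these were chosen after their values were seen. They were Akr1b3, Gstm2, Cbr1, Lta4h, Mgst3, Csf1r, Cd14, Cd68, Itga2b, Zfp36l1, Usf1 and others in lists of 5 or fewer, or listed at 0.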

Additional observations from a re-analysis of the deposited data

How the results depend on the processing

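The calls of Ptgs2, Ptges, Ptger4, Ptges3, Pla2g4a and Ptgis kept their direction and their side of the threshold in all 15 alternatives run for each. The rise of Ptges2 was not called without the filter on low values (log2 change 0.21, adjusted p = 0.0796), with median of ratios scaling (0.18) or in the authors' deposited comparison (0.076), and ranged from 0.16 to 0.27 with a library left out. Ptgr1 was called lowered with upper quartile scaling (−0.20, adjusted p = 0.0482), median of ratios scaling (−0.23) and by the authors (−0.26), and ranged from −0.29 to −0.14 with a library left out. Ptgs1 ranged from −0.30 to −0.088 and was called only without PBS replicate 2. The count of raised members was accordingly 1 in place of 2 without the filter, with median of ratios scaling and in the authors' comparison, and 1 to 2 with a library left out. The wider list had 8 raised genes in place of 13 with a minimum of 5 FPKM, since fewer genes were tested. Same-numbered libraries did not deviate together (correlations of −0.12, −0.02 and −0.29). Among differently numbered libraries the highest correlation was 0.285, for exosome replicate 1 with PBS replicate 3. Whether any libraries share a culture or batch was not tested and cannot be told from so few libraries. With a replicate block, 5 members were lowered and 2 raised as without it, and 1626 of all genes were lowered and 2288 raised, against 1889 and 2612. With median of ratios scaling the excess of raised genes was gone, with 2250 raised and 2276 lowered, as in the authors' deposited table with 1966 and 2140. The log2 ratio of Ptgs2 to Ptgs1 differed by −2.20 to −2.13 with a library left out, with a smallest possible exact p of 0.2. The planned ratio of Hpgd to Ptges could not be formed because Hpgd was at 0.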
